A study of Rattus norvegicus with 6 samples.

Results

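The genes described here encode the semaphorins, their plexin and neuropilin receptors, and the intracellular proteins that carry semaphorin signals to the cytoskeleton. Members were the protein-coding genes in the deposited count table whose symbols name a semaphorin (Sema3 to Sema7), a plexin, a neuropilin, a collapsin response mediator protein (Crmp1 and Dpysl genes), a MICAL monooxygenase or one of the plexin domain containing proteins Plxdc1 and Plxdc2. There were 38 such genes among 18746 in the table. The rule reads symbol and gene type and no expression value, but it was set with earlier results of these data known. Rat cells labelled as PC12, a line derived from an adrenal pheochromocytoma, had been transfected with Lipofectamine 2000 with an siRNA against NQO1 (siNQO1, 3 samples) or a nontargeting siRNA (siCtrl, 3 samples), and both groups were grown in RPMI-1640 with fetal bovine serum. The labels of the deposited samples name an shRNA and a control plasmid in place of the siRNAs, and both sources give the same grouping. The comparison asks how loss of NQO1, an antioxidant enzyme that also binds RNA, alters the transcriptome.

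Semaphorins are secreted or membrane-bound cues that repel or attract growing axons and migrating cells. Plexins are their signaling receptors, and most secreted semaphorins need a neuropilin as a co-receptor. An activated plexin acts on small GTPases, while collapsin response mediator proteins bind tubulin and MICAL enzymes oxidize actin. Outside the nervous system the same genes guide blood vessels, neural crest cells and immune cells, and neuropilins also bind vascular endothelial growth factors.

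Libraries held 28873824 to 39467230 reads counted in genes, and Nqo1 (ENSRNOG00000012772, chromosome 19) was at 321 to 369 FPKM in siCtrl and 75.2 to 80.8 in siNQO1, where FPKM is the read abundance scaled by the authors to transcript length and sequencing depth. The marker genes of the labelled line were all but undetected. Of 10 markers of chromaffin cells, the adrenal cell type from which PC12 derives, 8 were in the table, none was over 1 FPKM in any library, and the highest value of any of them was 0.43 FPKM (Gata3). Their summed FPKM was 0.65 to 0.66 in siCtrl and 0.47 to 0.54 in siNQO1, and the dopamine-synthesizing enzyme Th had 3 to 6 reads per library. By contrast, 3 of 6 markers of Schwann cells, the glia of peripheral nerve, were over 1 FPKM in every library, and the sum of the list was 425 to 488 FPKM in siCtrl and 380 to 386 in siNQO1, with Sox10 at 192 to 233 FPKM over all libraries. In this list S100b was lower in siNQO1 (log2 fold change -0.45, adjusted p = 0.00329 from edgeR), Mbp had 1 to 5 reads per library, and Foxd3 is not analysed here. The fibroblast list summed to 50.6 to 51.4 FPKM in siCtrl and 46.0 to 49.3 in siNQO1, nearly all of it Pdgfra, and those of endothelial cells and leukocytes summed to 0.96 to 1.23 and 0.85 to 1.49 FPKM over all libraries. The data therefore go against the label of a chromaffin-derived line, and the cells are called by that label alone in what follows. Whether these marker differences bear on the members was not tested. In bulk RNA, fewer cells of a type and less RNA per cell cannot be told apart.

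siCtrl replicate 2 stood apart from siCtrl replicates 1 and 3 in 2 of the secreted semaphorins. Results on the members and their signaling partners that rest on siCtrl replicate 2 are therefore given with and without that library. Read counts were scaled by TMM and compared with edgeR (quasi-likelihood test), with p-values adjusted over the 12420 genes left after filtering low counts. The study calls its samples biological replicates, while neither its methods nor the labels describe separate cultures, so the spread behind the p-values may be partly technical. An exact permutation test of a single gene, two-sided, has 0.10 as its smallest p with 3 samples in each group.

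Of the 38 members, 30 passed the filter. The other 8 had between 0 and 12 reads in any library, and they were Sema3d, Sema3g, Sema4d, Sema4f, Sema5a, Plxna4a, Plxnc1 and Plxdc1. Among the 30, 11 averaged over 10 FPKM, 13 lay between 1 and 10 FPKM, and 6 were under 1 FPKM. In several roles one gene carried most of the transcript. Sema3c took 47.9% to 70.0% of the summed FPKM of the secreted semaphorins, Sema7a took 51.4% to 55.5% of the summed FPKM of the membrane-bound semaphorins, Plxnb2 took 62.4% to 65.9% of that of the plexins, Nrp2 took 89.0% to 91.0% of that of the neuropilins, and Mical1 took 70.0% to 78.0% of that of the MICALs. The share of Sema7a was 51.4% to 53.4% in siCtrl and 54.3% to 55.5% in siNQO1, whereas those of Nrp2 and Mical1 overlapped between the groups.

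**Figure D1:**
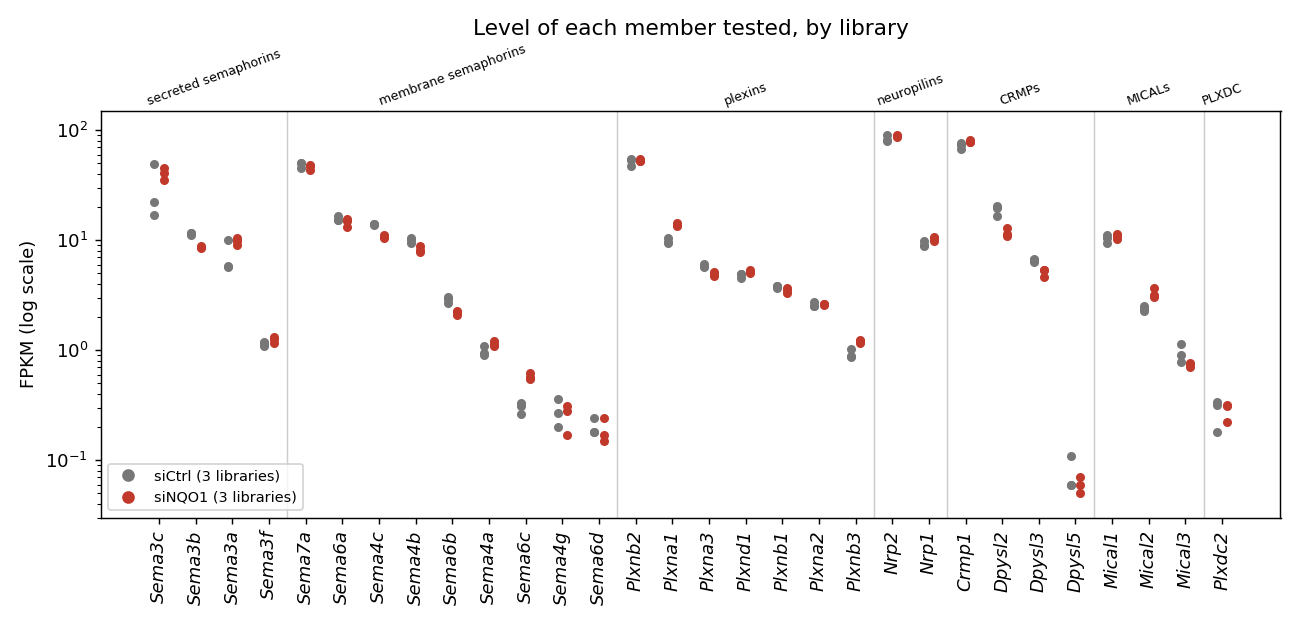
FPKM of the 30 members tested (log scale), with 1 point per library, siCtrl in gray and siNQO1 in red, ordered by mean FPKM within each role. Nrp2, Crmp1, Plxnb2 and Sema7a are the most abundant members of their roles among the neuropilins, the collapsin response mediator proteins (CRMPs), the plexins and the membrane-bound semaphorins, and siCtrl replicate 2 lies far above the other siCtrl libraries in Sema3c.

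After NQO1 knockdown, 7 of the 30 members tested were lower and 3 were higher at an adjusted p under 0.05. The lower members were the semaphorins Sema3b, Sema4b, Sema4c and Sema6b, the receptor Plxna3, and the cytoskeletal proteins Dpysl2 and Dpysl3. The higher members were the receptor Plxna1, the semaphorin Sema6c and the actin oxidase Mical2. The lower members were 23.3% of those tested, against 7.38% of all genes tested called lower, and the higher members were 10.0%, against 5.27% of all genes called higher. None of the members also passed a fold of 2, which 0.435% of all genes tested did together with the adjusted p, and Sema6c came closest at 1.95-fold. The median log2 fold change was 0.03 over the 30 members and 0.01 over all genes, with 16 members above 0 and 14 below. In TMM-scaled CPM (counts relative to library size), siNQO1 lay wholly above siCtrl in 7 members (16.3% of all genes did so) and wholly below it in 9 (17.9% of all genes). Dpysl2, Sema3b, Sema4c and Plxna1 kept their calls with any 1 library left out, and the other 6 lost them without at least 1 library. The number of lower members was 3 without any 1 of siCtrl replicates 1 and 3 and siNQO1 replicates 1, 2 and 3. In those fits 351 to 662 of all genes were called lower, against 917 with all libraries. Without siCtrl replicate 2 the lower members numbered 7, and 16.1% of all genes were called lower. The number of higher members was 1 without siNQO1 replicate 2 or 3. There 167 and 189 of all genes were called higher, against 654 with all libraries. It was 6 without siCtrl replicate 2, where 17.2% of all genes were called higher.

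**Figure D2:**
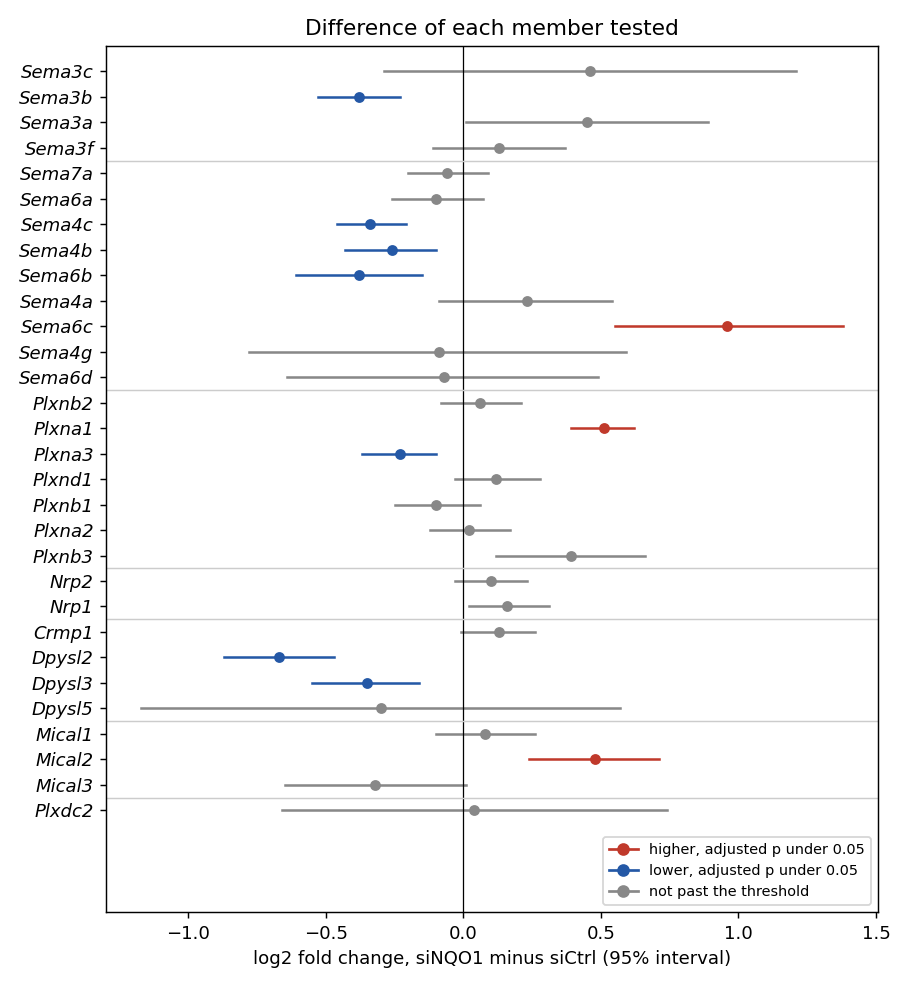
Log2 fold change of siNQO1 relative to siCtrl for the 30 members tested, with the 95% confidence interval as a horizontal line, ordered as in the plot of levels. Blue marks the 7 members called lower, red the 3 called higher and gray the 20 not past the threshold, and Dpysl2 has the lowest and Sema6c the highest value.

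Of the 4 secreted semaphorins tested, 1 was lower and the other 3 did not pass. Sema3b (ENSRNOG00000016512, chromosome 8), a ligand of the neuropilins, was at 11.6, 11.1 and 11.6 FPKM in siCtrl replicates 1, 2 and 3 and at 8.86, 8.53 and 8.73 in siNQO1 replicates 1, 2 and 3. Every siNQO1 library lay below every siCtrl library. The mean was 11.4 ± 0.306 FPKM in siCtrl (SD, n = 3) and 8.71 ± 0.166 in siNQO1 (SD, n = 3), and the log2 fold change was -0.38 (adjusted p = 0.00897 from edgeR, standard error 0.066). Sema3f, which acts mainly through Nrp2, lay between 1.09 and 1.31 FPKM in all libraries and had a log2 fold change of 0.13 (95% confidence interval -0.11 to 0.37).

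In Sema3c and Sema3a siCtrl replicate 2 stood furthest above the other siCtrl libraries. Sema3c (ENSRNOG00000006526, chromosome 4), a cue for neural crest cells in the developing heart, was at 17.0, 49.6 and 22.3 FPKM in siCtrl replicates 1, 2 and 3 and at 45.0, 40.5 and 35.3 in siNQO1 replicates 1, 2 and 3. siCtrl replicate 2 had the highest level of the 6 libraries, and siCtrl replicates 1 and 3 lay below every siNQO1 library. Sema3a (ENSRNOG00000023337, chromosome 4), the classical repellent that signals through Nrp1 and plexins of the A group, was at 5.75, 10.1 and 5.85 FPKM in siCtrl replicates 1, 2 and 3 and at 9.13, 10.4 and 9.78 in siNQO1 replicates 1, 2 and 3. siCtrl replicate 2 lay within the siNQO1 range, and the other siCtrl libraries lay below it. On the log2 scale of TMM-scaled CPM, siCtrl replicate 2 was 1.33 above the mean of siCtrl replicates 1 and 3 for Sema3c, a positive difference that 1.27% of all genes tested reached. For Sema3a that difference was 0.78, reached by 6.01% of genes. No other member tested differed by more than 0.63 in size between these libraries (Sema4g, at 35 to 52 siCtrl reads).

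With all 6 libraries Sema3c had a log2 fold change of 0.46 (95% confidence interval -0.29 to 1.21, adjusted p = 0.397 from edgeR) and Sema3a one of 0.45 (0.01 to 0.89, adjusted p = 0.161 from edgeR). Neither was called. Without siCtrl replicate 2 both were called higher, with log2 fold changes of 1.04 (adjusted p = 3.69e-05 from edgeR, standard error 0.115) for Sema3c and 0.76 (adjusted p = 1.43e-05 from edgeR, standard error 0.0732) for Sema3a. In that fit 17.2% of all genes were called higher and 16.1% lower, against 5.27% and 7.38% with all libraries. Without siCtrl replicate 2 Sema3b stayed lower, at -0.41. In siCtrl replicates 1, 2 and 3 the FPKM of Sema3c was 1.47, 4.48 and 1.92 times that of Sema3b, and in siNQO1 replicates 1, 2 and 3 it was 5.07, 4.75 and 4.05 times that of Sema3b.

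**Figure D3:**
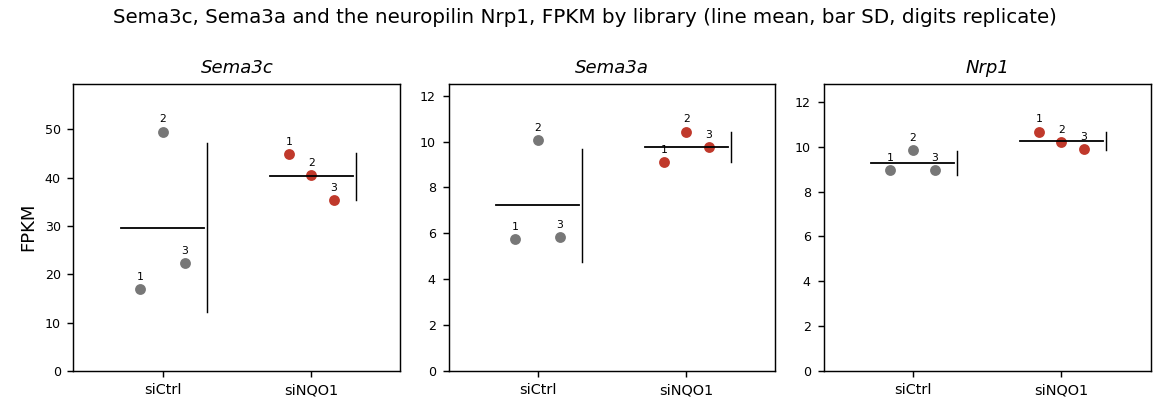
FPKM of Sema3c, Sema3a and their neuropilin co-receptor Nrp1 in each library, with siCtrl in gray, siNQO1 in red, the group mean as a horizontal line, the SD as a vertical bar and the replicate number above each point. siCtrl replicate 2 reaches 49.6 FPKM of Sema3c, above the 35.3 to 45.0 FPKM of siNQO1, while siCtrl replicates 1 and 3 are at 17.0 and 22.3 FPKM.

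Among the membrane-bound semaphorins 3 were lower, 1 was higher and 5 of the 9 tested did not pass. Sema4c (ENSRNOG00000016254, chromosome 9), a ligand of Plxnb2, was at 14.0, 13.7 and 14.0 FPKM in siCtrl replicates 1, 2 and 3 and at 10.9, 10.5 and 11.3 in siNQO1 replicates 1, 2 and 3. The groups did not overlap, and the log2 fold change was -0.34 (adjusted p = 0.0066 from edgeR, standard error 0.0537). Sema4b (ENSRNOG00000025167, chromosome 1), which belongs to the same class, was at 10.5, 9.46 and 10.0 FPKM in siCtrl replicates 1, 2 and 3 and at 8.14, 7.76 and 8.85 in siNQO1 replicates 1, 2 and 3. Its groups did not overlap either, and its log2 fold change of -0.26 lay just inside the threshold (adjusted p = 0.0488 from edgeR, standard error 0.0731). Sema6b (ENSRNOG00000045998, chromosome 9), a transmembrane ligand of A-group plexins, was at 2.93, 2.68 and 3.06 FPKM in siCtrl replicates 1, 2 and 3 and at 2.26, 2.23 and 2.10 in siNQO1 replicates 1, 2 and 3. All siNQO1 libraries were below all siCtrl libraries, with a log2 fold change of -0.38 (adjusted p = 0.0415 from edgeR, standard error 0.101). Without 1 of the libraries other than siCtrl replicate 2, Sema4b and Sema6b no longer passed (highest adjusted p = 0.148 and 0.130 from edgeR).

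Sema6c (ENSRNOG00000021101, chromosome 2), of the same class as Sema6b, moved the other way. It had 36, 35 and 42 reads in siCtrl replicates 1, 2 and 3 and 70, 78 and 86 reads in siNQO1 replicates 1, 2 and 3, which made 0.30 ± 0.0361 FPKM in siCtrl (SD, n = 3) and 0.58 ± 0.0361 in siNQO1 (SD, n = 3). The groups did not overlap, and the log2 fold change of 0.96 was the largest rise of any member (95% confidence interval 0.55 to 1.38, adjusted p = 0.0121 from edgeR). At this low level the call was lost without siNQO1 replicate 2 or 3 (adjusted p = 0.0649 and 0.052 from edgeR). In FPKM the rise of Sema6c was smaller than the difference in Sema6b, since Sema6b was at 2.89 ± 0.193 in siCtrl and 2.20 ± 0.085 in siNQO1 (SD, n = 3).

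The most abundant semaphorin, Sema7a, is tethered to the membrane by a lipid anchor and binds Plxnc1 and integrins that contain the beta-1 chain. It was at 50.3, 45.1 and 50.7 FPKM in siCtrl replicates 1, 2 and 3 and at 43.7, 47.0 and 48.6 in siNQO1 replicates 1, 2 and 3. The groups overlapped, and the log2 fold change was -0.06 (95% confidence interval -0.20 to 0.09). Its plexin was nearly absent, with 2 to 7 reads of Plxnc1 per library, whereas Itgb1, the beta-1 integrin chain, was at 149 to 164 FPKM. Sema6a lay between 13.3 and 16.8 FPKM in all libraries (log2 fold change -0.10, 95% confidence interval -0.26 to 0.07). Sema4a, Sema4g and Sema6d lay between 0.15 and 1.22 FPKM and had log2 fold changes of 0.23, -0.09 and -0.07, none of them past the threshold. Sema4d, the best known ligand of Plxnb1, had 1 read in 1 of the 6 libraries, although Plxnb1 itself was at 3.31 to 3.87 FPKM.

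Among the receptors, A-group plexins changed in opposite directions. Plxna1 (ENSRNOG00000017003, chromosome 4), which pairs with neuropilins to transmit secreted semaphorin signals, was at 10.4, 9.67 and 9.50 FPKM in siCtrl replicates 1, 2 and 3 and at 13.5, 13.9 and 14.2 in siNQO1 replicates 1, 2 and 3. All siNQO1 libraries lay above all siCtrl libraries, by far more than the spread within either group. The mean was 9.86 ± 0.478 FPKM in siCtrl (SD, n = 3) and 13.9 ± 0.340 in siNQO1 (SD, n = 3), a 1.42-fold difference that had the smallest adjusted p of any member (log2 fold change 0.51, adjusted p = 0.000804 from edgeR, standard error 0.0496). Plxna3 (ENSRNOG00000060464, chromosome X), a receptor of the same group, was at 6.06, 5.75 and 5.78 FPKM in siCtrl replicates 1, 2 and 3 and at 4.72, 5.14 and 4.97 in siNQO1 replicates 1, 2 and 3. It was lower in every siNQO1 library (log2 fold change -0.23, adjusted p = 0.0354 from edgeR, standard error 0.0585), and without 1 library other than siCtrl replicate 2 it no longer passed (highest adjusted p = 0.103 from edgeR). Plxna2 stayed between 2.50 and 2.72 FPKM (log2 fold change 0.02, 95% confidence interval -0.12 to 0.17), and Plxna4a had 1 read in 1 library. The ratio of Plxna1 to Plxna3 in FPKM was therefore 1.68 ± 0.0363 in siCtrl (SD, n = 3) and 2.81 ± 0.0951 in siNQO1 (SD, n = 3).

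The other plexins did not pass the test. Plxnb2, the receptor of Sema4c and the most abundant plexin, was at 54.6, 47.1 and 53.2 FPKM in siCtrl replicates 1, 2 and 3 and at 52.6, 52.6 and 55.3 in siNQO1 replicates 1, 2 and 3. The groups overlapped, with a log2 fold change of 0.06 (95% confidence interval -0.08 to 0.21). Plxnb3 (ENSRNOG00000061731, chromosome X) had the largest change among the plexins that were not called. It was at 0.88, 0.86 and 1.03 FPKM in siCtrl replicates 1, 2 and 3 and at 1.21, 1.15 and 1.24 in siNQO1 replicates 1, 2 and 3. Its groups did not overlap, and its log2 fold change of 0.39 lay just outside the threshold (95% confidence interval 0.12 to 0.66, adjusted p = 0.0643 from edgeR). Plxnb1 and Plxnd1, the latter a receptor on blood vessels, had log2 fold changes of -0.10 and 0.12 (95% confidence intervals -0.25 to 0.06 and -0.03 to 0.28).

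Of the neuropilins, Nrp2 was far more abundant than Nrp1, and neither was called with all libraries. Nrp2 (ENSRNOG00000031232, chromosome 9) was at 91.0, 80.0 and 81.3 FPKM in siCtrl replicates 1, 2 and 3 and at 88.7, 87.7 and 91.0 in siNQO1 replicates 1, 2 and 3, and it was the most abundant of all members. Its groups overlapped, and its log2 fold change was 0.10 (95% confidence interval -0.03 to 0.23). Nrp1 (ENSRNOG00000010744, chromosome 19), the co-receptor of Sema3a, was at 8.95, 9.87 and 8.96 FPKM in siCtrl replicates 1, 2 and 3 and at 10.7, 10.2 and 9.90 in siNQO1 replicates 1, 2 and 3. The siNQO1 libraries lay above the siCtrl libraries, the closest pair being siNQO1 replicate 3 and siCtrl replicate 2, and the log2 fold change of 0.16 did not pass (adjusted p = 0.128 from edgeR). Without siCtrl replicate 2 Nrp1 was called higher (log2 fold change 0.20, adjusted p = 0.0133 from edgeR).

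Collapsin response mediator proteins, which act downstream of semaphorin receptors on microtubules, changed in their proportions. Dpysl2 (ENSRNOG00000009625, chromosome 15), which encodes CRMP2, was at 19.6, 20.3 and 16.7 FPKM in siCtrl replicates 1, 2 and 3 and at 11.5, 10.8 and 12.9 in siNQO1 replicates 1, 2 and 3. Every siNQO1 library lay below every siCtrl library. The mean was 18.9 ± 1.90 FPKM in siCtrl (SD, n = 3) and 11.7 ± 1.06 in siNQO1 (SD, n = 3), which was the largest fall of any member called (log2 fold change -0.67, 95% confidence interval -0.87 to -0.47, adjusted p = 0.00291 from edgeR). Its log2 fold change ran from -0.75 to -0.62 with 1 library left out. Dpysl3 (ENSRNOG00000018992, chromosome 18), which encodes CRMP4, was at 6.78, 6.58 and 6.37 FPKM in siCtrl replicates 1, 2 and 3 and at 4.64, 5.33 and 5.32 in siNQO1 replicates 1, 2 and 3. The groups did not overlap (log2 fold change -0.35, adjusted p = 0.0323 from edgeR, standard error 0.0866), and the call was lost without any 1 library other than siCtrl replicate 2 (highest adjusted p = 0.101 from edgeR).

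Crmp1 (ENSRNOG00000004781, chromosome 14), the most abundant gene of this family, did not follow them. It was at 76.9, 67.4 and 73.7 FPKM in siCtrl replicates 1, 2 and 3 and at 77.5, 77.7 and 80.8 in siNQO1 replicates 1, 2 and 3. The siNQO1 libraries lay above siCtrl by a narrow margin, with a log2 fold change of 0.13 that did not pass (95% confidence interval -0.01 to 0.26, adjusted p = 0.191 from edgeR). The summed FPKM of the family was 98.2 ± 4.68 in siCtrl (SD, n = 3) and 95.6 ± 3.08 in siNQO1 (SD, n = 3), and the share of Crmp1 in it was 71.4% to 76.0% in siCtrl and 81.5% to 82.7% in siNQO1. The ratio of Crmp1 to Dpysl2 in FPKM was 3.88 ± 0.545 in siCtrl (SD, n = 3) and 6.73 ± 0.453 in siNQO1 (SD, n = 3). Dpysl5 had 9 to 21 reads per library and a log2 fold change of -0.30 with a wide interval (-1.17 to 0.57).

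**Figure D4:**
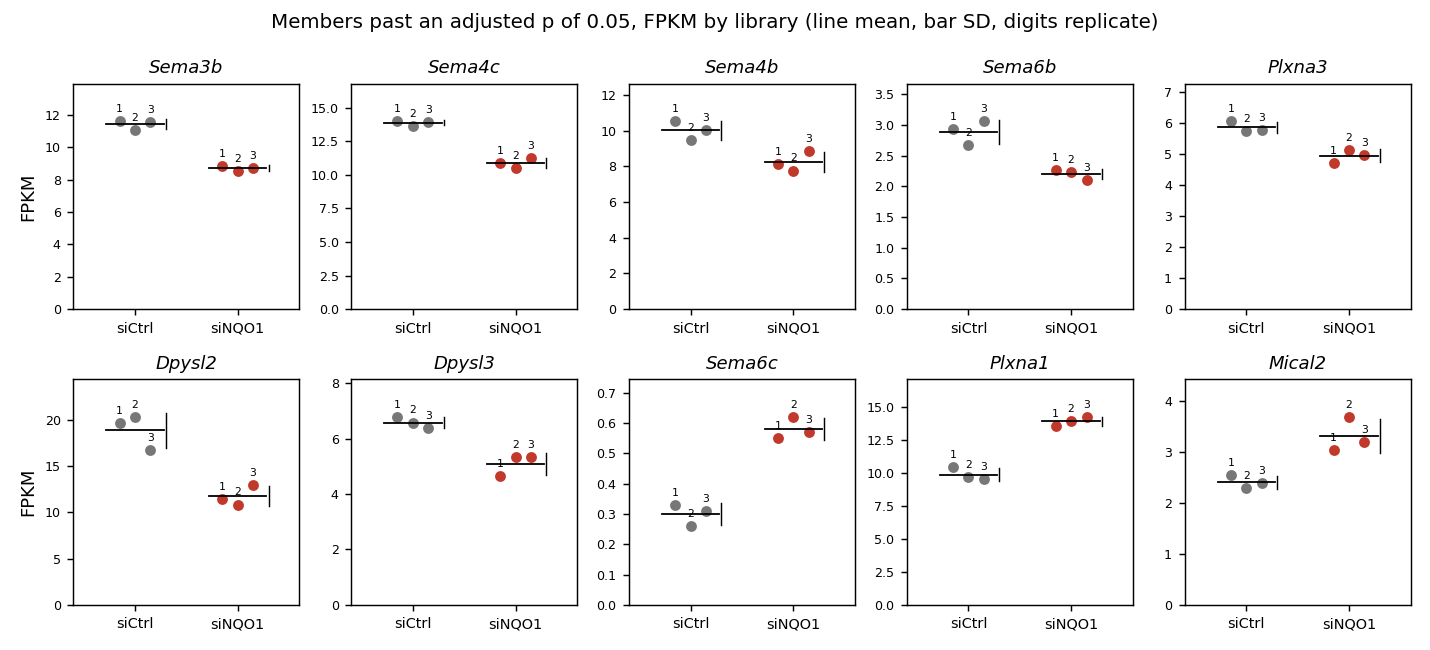
FPKM of the 10 members called, in each library, with siCtrl in gray, siNQO1 in red, the group mean as a horizontal line, the SD as a vertical bar and the replicate number above each point. In all 10 panels the 3 siNQO1 libraries lie wholly below (the first 7 panels) or wholly above (the last 3 panels) the siCtrl libraries, and each vertical axis starts at 0.

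MICAL monooxygenases bind plexins and disassemble actin filaments by oxidizing them. Mical2 (ENSRNOG00000016244, chromosome 1), a member found in the nucleus, was at 2.54, 2.28 and 2.38 FPKM in siCtrl replicates 1, 2 and 3 and at 3.04, 3.68 and 3.19 in siNQO1 replicates 1, 2 and 3. All siNQO1 libraries were above all siCtrl libraries, with a log2 fold change of 0.48 (adjusted p = 0.0212 from edgeR, standard error 0.103). The call was lost without siCtrl replicate 3 or any 1 siNQO1 library (highest adjusted p = 0.0962 from edgeR). Mical1, the most abundant of the 3, was at 10.5, 9.41 and 11.2 FPKM in siCtrl replicates 1, 2 and 3 and at 10.8, 10.4 and 11.4 in siNQO1 replicates 1, 2 and 3. The groups overlapped (log2 fold change 0.08, 95% confidence interval -0.10 to 0.26). Mical3 lay below 1.2 FPKM throughout and had a log2 fold change of -0.32 that did not pass (adjusted p = 0.192 from edgeR).

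Promoter windows of RefSeq (assembly GRCr8, 250 bases before to 50 after the gene start) were matched by symbol for 27 of the 38 members, 7 of them among the 10 called. The core of the antioxidant response element was searched on both strands as TGACNNNGC, because Nqo1 is itself a textbook target of the factor that binds it. Its letters were present in 3 of the 27 windows and in 12.1% of all 33469 windows. Of the 3 genes, Mical2 was called higher and Mical1 and Sema7a were not called, and the matches are shown with 8 bases on each side and the motif in capitals, read 5′ to 3′ on the strand of the gene.
Mical2 (chr1:175780379-175780403, + strand, reverse orientation): cttcggacGCCCTGTCAttggctga
Mical1 (chr20:46556396-46556420, + strand, reverse orientation): ggactcagGCACGGTCActcaagtc
Sema7a (chr8:67244227-67244251, + strand, forward orientation): caggcgctTGACTCCGCctcctggc
The matches start 59, 134 and 83 bases before the gene start in Mical2, Mical1 and Sema7a. The GC box GGGCGG was present in 18 of the 27 windows and in 33.1% of all windows, and the TATA box TATAAA in 0 of 27 and in 14.2% of all windows. These are matches of letters in a window of a newer assembly than the one used for the read counts, and nothing was measured at them. The shares of all windows were taken without regard to gene type or presence in the count table. The members are protein-coding genes of that table, so the sets are unlike, and no difference between them was tested.

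The plexin domain containing proteins, cell surface proteins named for a domain shared with plexins, were scarce. Plxdc2 lay between 0.18 and 0.34 FPKM (log2 fold change 0.04, 95% confidence interval -0.66 to 0.74), and Plxdc1 had 2 to 12 reads per library and was not tested.

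The genes that relay plexin signals were read from a list of 59 co-receptors, neuropilin ligands and cytoplasmic partners, of which 49 were tested. Of these, 4 were higher (8.16% of those tested) and 4 were lower (8.16%), beside 5.27% and 7.38% of all genes. Rnd3, a GTPase that binds plexins, was at 19.9, 24.3 and 20.1 FPKM in siCtrl replicates 1, 2 and 3 and at 33.2, 33.5 and 32.3 in siNQO1 replicates 1, 2 and 3. The groups were well apart (log2 fold change 0.64, adjusted p = 0.00208 from edgeR, standard error 0.0771). Rras, the Ras-type GTPase that plexins inactivate, was at 59.8, 54.6 and 64.9 FPKM in siCtrl replicates 1, 2 and 3 and at 81.0, 83.8 and 86.0 in siNQO1 replicates 1, 2 and 3. It was higher in every siNQO1 library (log2 fold change 0.50, adjusted p = 0.0044 from edgeR, standard error 0.0723). Itga1, the integrin alpha-1 chain that pairs with beta-1 to bind Sema7a, and the kinase Pak2 were the other rises (log2 fold changes 0.50 and 0.27).

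The 4 lower partner genes were 3 kinases and 1 adaptor. Cdk5, a kinase that phosphorylates CRMP2 in response to Sema3a, was at 22.2, 19.3 and 20.8 FPKM in siCtrl replicates 1, 2 and 3 and at 15.2, 15.3 and 15.5 in siNQO1 replicates 1, 2 and 3. The groups did not overlap (log2 fold change -0.42, adjusted p = 0.00606 from edgeR, standard error 0.0666). Ptk2, which encodes focal adhesion kinase, was at 21.9, 22.1 and 21.3 FPKM in siCtrl replicates 1, 2 and 3 and at 16.8, 16.5 and 16.8 in siNQO1 replicates 1, 2 and 3. It too was lower in every siNQO1 library (log2 fold change -0.37, adjusted p = 0.00242 from edgeR). Limk1, the kinase that inactivates cofilin, and the endocytic adaptor Numb were the other falls (log2 fold changes -0.32 and -0.46). Gsk3b, another kinase of CRMP2, lay between 13.3 and 16.8 FPKM and had a log2 fold change of 0.07 (95% confidence interval -0.14 to 0.28), and the cofilin gene Cfl1 one of -0.03 (-0.16 to 0.09). Rnd3, Rras, Cdk5 and Ptk2 passed with any 1 library left out, whereas Itga1, Pak2, Limk1 and Numb did not (highest adjusted p = 0.0908, 0.135, 0.0572 and 0.0696 from edgeR). The number of higher partner genes was 11 and that of lower ones 9 without siCtrl replicate 2, a fit in which 17.2% of all genes were called higher and 16.1% lower. Among those 11 were Rock2, Chl1, Rock1 and Rasa1, with log2 fold changes of 1.29, 1.16, 0.92 and 0.91 there. With all libraries these were 0.74, 0.80, 0.28 and 0.50, and none of them passed. Chl1 came close (adjusted p = 0.0551 from edgeR). Higher partner genes numbered 2 without siCtrl replicate 1 or 3 or siNQO1 replicate 1 or 2, and lower ones 2 without siNQO1 replicate 2. In those fits 167 to 346 of all genes were called higher, against 654 with all libraries. All genes called lower numbered 351 without siNQO1 replicate 2, against 917 with all libraries.

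**Figure D5:**
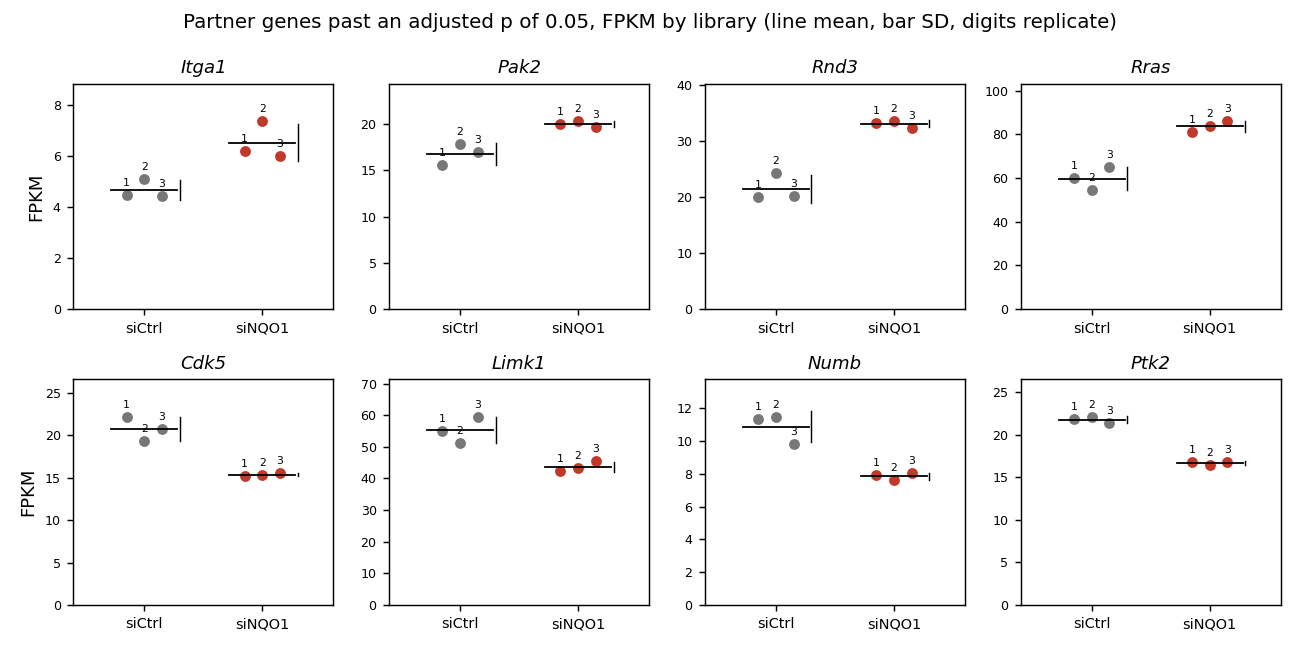
FPKM of the 8 partner genes called, in each library, with siCtrl in gray, siNQO1 in red, the group mean as a horizontal line, the SD as a vertical bar and the replicate number above each point. The upper row holds the 4 genes higher in siNQO1 and the lower row the 4 genes lower in it, and the groups do not overlap in any of the 8.

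Other families of guidance cues gave a different count. Of 24 ephrins, Slits, netrins, FLRT proteins and their receptors that were tested, 6 were higher in the same fit of edgeR (Efnb2, Slit2, Robo2, Ntn4, Unc5c and Flrt3), a direction in which 5.27% of all genes were called, and 18 were not called, with a median log2 fold change of 0.12. The difference between these families and the semaphorin genes was not tested.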

How the data were processed

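Polyadenylated RNA of 3 siNQO1 and 3 siCtrl samples was sequenced by the authors with a strand-specific kit. The authors trimmed reads with the FASTX-Toolkit, aligned them to the RGSC6 genome with TopHat2 and counted uniquely mapped reads, and bcl2fastq and edgeR are also listed in the submitters' processing notes. The deposited counts are raw whole reads of each gene, and the deposited FPKM values were made by the authors and rounded. How reads were counted, and whether by strand, is not stated in the methods read, so overlapping genes may share reads.

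The test was run with edgeR 4.0.16 in R 4.3.3 (filterByExpr by group, TMM, glmQLFit and glmQLFTest, no block, Benjamini-Hochberg adjustment over 12420 genes). Libraries held 28873824 to 39467230 counted reads, TMM factors ran from 0.987 to 1.02, and the common biological coefficient of variation was 0.109. Standard errors and 95% confidence intervals were taken from the F statistic. The test was checked on simulated counts. The changed genes in them had folds larger than those of most members called, so the check does not cover changes of that size. Sema5a and Plxna4a are in the count table and not in the FPKM table. Calls are at an adjusted p under 0.05. Members named are all those called, the most abundant of each role and the 3 with the largest changes among those not called; partner genes named are those called, up to 8 of each direction, and Nqo1. Itgb1, Gsk3b, Cfl1, Rock2, Chl1, Rock1, Rasa1, the remaining members and the 6 other guidance genes were named after their values were seen. The members and lists were chosen with earlier results of these data known. Alternatives were other scalings (RLE, upper quartile, library size), filters, the likelihood ratio and exact tests of edgeR, DESeq2 1.42.0, limma 3.58.1 (voom, and log2(FPKM + 1) and log2(FPKM + 0.1)), a block for the replicate number, and leaving out each library in turn. Splicing was not analysed here, and 1 gene of the marker lists is not reported here.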

Additional observations from a re-analysis of the deposited data

How the results depend on the processing

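The 3 higher members were the same genes under each of the 12 alternatives that kept all libraries. The number of lower members stayed between 5 and 7 under the 9 of these not named next. It was 4 with no filter, 4 with limma on log2(FPKM + 0.1), and 3 with the replicate block, where Dpysl3, Sema4b, Sema6b and Plxna3 had adjusted p of 0.0598, 0.0528, 0.07 and 0.0681 and the 3 higher members were still called. All genes called lower numbered 904 with no filter, 920 with limma on log2(FPKM + 0.1) and 740 with the replicate block, against 917 in the main fit. Sema4b was the call most often lost. With 1 library left out, higher members numbered 1 to 6 and lower members 3 to 7, and higher partner genes 2 to 11 and lower ones 2 to 9. The calls over all genes varied as well in these fits, from 167 to 2164 higher and from 351 to 2036 lower. The log2 fold change of Plxnb2 was 0.00 to 0.10 across these fits, at 0.00 and of the opposite sign without siCtrl replicate 2. Among log2 fold changes of named genes under the alternatives with all libraries, 295 kept their direction and side of the threshold and 17 lost the call. Libraries that share a number had deviations from the group mean that correlated at -0.04, 0.16 and 0.06, and 3 of the 6 libraries correlated best with their own number, so the numbers were not taken to pair the samples. Genes under about 100 reads, such as Sema6c, carry wide intervals.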
